A study of Mus musculus with 28 samples.

Results

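Integrin subunits were followed in vascular cells of the mouse brain, sorted from animals with brain metastasis (BrM) or without tumor. The 10 genes were looked up by symbol in the raw count table and comprise 7 alpha chains (Itga1, Itga2, Itga3, Itga4, Itga5, Itga6 and Itgav) and 3 beta chains (Itgb1, Itgb3 and Itgb4), out of 53647 gene IDs. All 10 had counts and passed the low-count filter in every fit.

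Integrins are surface receptors in which an alpha chain pairs with a beta chain, binds extracellular matrix or a counter-receptor on another cell, and connects it through talin and kindlin to the actin cytoskeleton. The alpha chain largely sets the ligand: alpha-1 and alpha-2 with beta-1 bind collagens, alpha-3 and alpha-6 bind laminins, alpha-4 binds VCAM-1 and fibronectin, alpha-5 binds fibronectin, and alpha-v binds ligands with an RGD motif such as vitronectin and osteopontin, with beta-3 among its partners. Alpha-6 with beta-4 holds epithelial cells to laminin in hemidesmosomes. In brain capillaries, endothelial cells and pericytes share a laminin and collagen IV basement membrane to which both attach by integrins.

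RNA was sequenced from 28 libraries of 6 groups. The PDGFRb sort (mural cells) gave 4 lung BrM, 4 breast BrM and 5 non-tumor libraries. The CD31 sort (endothelial cells) gave 5 of each. Lung BrM was grown from Sv2T3-BrM1 cells and breast BrM from PyMT-BrM3 cells, both injected into the heart. Per the protocol attached to every library, the mice were PDGFRβ-CreERT2; Rosa-tdTomato animals given tamoxifen at 2 mg a day over 5 days, so that tdTomato marks cells in which the Pdgfrb promoter had driven Cre, and their progeny. Sorted cells were free of CD45, CD11B and EPCAM and positive for either CD31 or tdTomato. They represent 15 animals or pools; both sorts were available for 13, and 2 lung samples name a pair of mice each. Age and strain are not stated in the labels used here.

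Libraries held 7.11 M to 23.9 M counts, and 3 counts in a library corresponded to 0.119 to 0.498 CPM (counts per M counts of scaled library size). Mouse 51950 gave the smallest of them (PDGFRb breast), with 9174 genes detected. Pecam1, which encodes CD31, reached 592 to 1437 CPM in the CD31 sort and at most 11.5 CPM in the PDGFRb sort. Pdgfrb stood at 302 to 1386 CPM in PDGFRb libraries of breast BrM and 856 to 1470 CPM in those of non-tumor brain. Among lung BrM libraries, mouse 51435 had 466 CPM, and the remaining 3 had only 36.9, 36.0 and 42.2 CPM and so go against their label. Those 3 libraries summed to 188 to 345 CPM over 10 pericyte markers, against 7723 CPM in mouse 51435 and 14030 to 24900 CPM in non-tumor brain. Over 12 epithelial and cancer cell markers the sums were 6126 to 9973 CPM in PDGFRb lung, 1262 to 4402 CPM in PDGFRb breast and 5.88 to 81.5 CPM in PDGFRb non-tumor libraries, and 96.5 to 2242, 157 to 3137 and 0.175 to 10.3 CPM in the corresponding CD31 groups. For mouse 54135 the title and the cell type label name opposite sorts. Both of its libraries were grouped by title. The library titled CD31 had 1362 CPM of Pecam1 and 0.227 CPM of Pdgfrb, and that titled PDGFRb had 4.01 and 855.7 CPM. Both genes thus go with the titles, and grouping by the cell type label sets each library among those of the other sort. Tests on the PDGFRb lung group are given also without the 3 libraries low in Pdgfrb, which leaves mouse 51435 as a lone sample assumed to vary like the rest. In sorted bulk RNA, fewer cells of a type and less RNA per cell cannot be told apart.

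**Figure D1:**
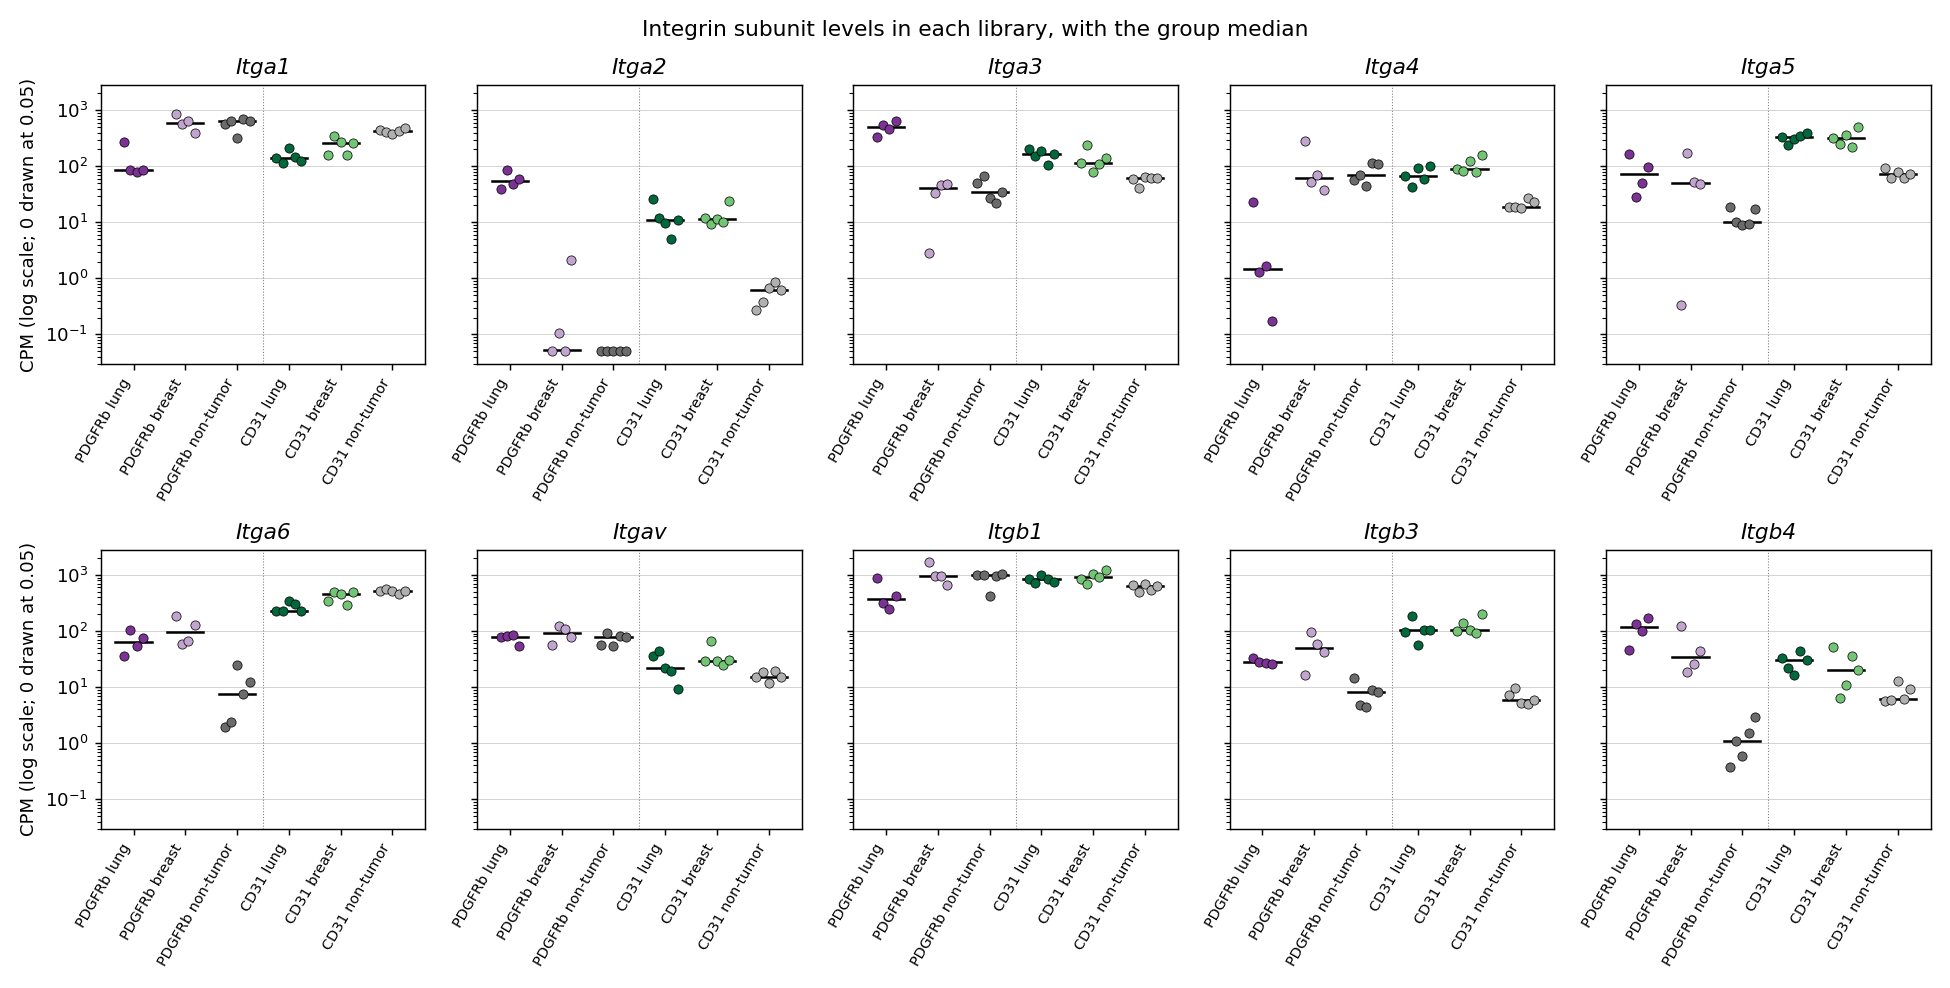
Levels of the 10 integrin subunits as CPM on a log axis, 1 point per library and a bar at each group's median, with 0 drawn at 0.05 CPM. Itgb3, Itga5, Itga4, Itga3 and Itga2 of the CD31 sort stood higher in both BrM groups than in every non-tumor library, and Itga1 stood lower.

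Most integrin transcripts of the CD31 sort differed between BrM and non-tumor brain. Relative to non-tumor brain, 7 of the 10 subunits rose and 2 fell in lung BrM, and 8 rose and 1 fell in breast BrM. Over all 14876 genes tested, 20.4% were called higher and 14.5% lower in lung BrM, and 18.6% higher and 11.4% lower in breast BrM (edgeR's quasi-likelihood test at an adjusted p under 0.05 after Benjamini and Hochberg). The median log2 difference of the 10 subunits was 1.69 in lung and 1.48 in breast BrM, beside -0.003 and 0.041 over all genes tested.

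Itgb3, the beta chain that pairs with alpha-v, rose with the smallest adjusted p of the 10 subunits in both tumors. It was at 96.7, 189, 56.0, 106 and 103 CPM in lung BrM and at 101, 138, 106, 91.4 and 203 CPM in breast BrM, against 7.16, 9.58, 5.16, 5.07 and 5.83 CPM in non-tumor brain. Every BrM library lay far above the non-tumor libraries. The log2 difference was 4.14 ± 0.33 in lung BrM (SE; 17.6-fold, adjusted p = 1.69e-07 by edgeR) and 4.31 ± 0.33 in breast BrM (19.9-fold, adjusted p = 1.17e-07 by edgeR). On the CPM scale its alpha partner Itgav stood at 26.3 ± 13.9 CPM in lung BrM and 35.8 ± 16.6 CPM in breast BrM, against 16 ± 2.86 CPM in non-tumor brain (SD, n = 5 each). Itgav passed the test in breast BrM (log2 1.19 ± 0.36, adjusted p = 0.0206 by edgeR) and not in lung BrM (0.78 ± 0.36, adjusted p = 0.107 by edgeR). The breast call rested on the library of mouse 52599, the highest at 65.2 CPM: without it the difference was 0.86 (adjusted p = 0.078 by edgeR). It was also lost without the non-tumor library of mouse 54135 (1.11, adjusted p = 0.053 by edgeR). With that mouse grouped by its cell type label, the breast difference was 0.53 (adjusted p = 0.48 by edgeR). In lung BrM the difference passed without the pool of mice 56195-56520 (0.99, adjusted p = 0.017 by edgeR). The authors' FPKM, scaled also by gene length, stood further apart, at 31.6 ± 24.1 in lung BrM and 31.1 ± 21.3 in breast BrM, against 7.81 ± 2.51 in non-tumor brain (SD, n = 5 each). That pool was the lowest library by CPM (9.37), but by FPKM (26.7) it lay above every non-tumor library (at most 10.5). Why the scales differ was not tested.

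Itga5, the fibronectin receptor chain, rose by nearly the same amount in both tumors. Its levels were 333, 244, 303, 350.0 and 391 CPM in lung BrM and 322, 249, 358, 223 and 505 CPM in breast BrM, against 91.8, 61.1, 80.8, 61.7 and 72.7 CPM in non-tumor brain. The groups did not overlap, and the lowest BrM library was above the highest non-tumor one. The log2 differences were 2.20 ± 0.21 in lung BrM (adjusted p = 1.06e-06 by edgeR) and 2.19 ± 0.21 in breast BrM (adjusted p = 1.1e-06 by edgeR). Itga4, the VCAM-1 receptor chain, was at 67.3, 42.2, 94.9, 58.6 and 101 CPM in lung BrM and at 88.2, 81.3, 126, 78.6 and 161 CPM in breast BrM, against 18.9, 18.5, 18.4, 27.2 and 23.0 CPM in non-tumor brain. It too was higher in all BrM libraries, by 1.84 ± 0.26 in lung BrM (adjusted p = 4.45e-05 by edgeR) and 2.36 ± 0.26 in breast BrM (adjusted p = 4.45e-06 by edgeR) on the log2 scale.

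The collagen receptor chains went opposite ways. Itga2 was at 25.6, 12.2, 9.73, 5.03 and 11.0 CPM in lung BrM and at 12.2, 9.48, 11.4, 10.1 and 24.4 CPM in breast BrM, against 0.269, 0.373, 0.681, 0.874 and 0.613 CPM in non-tumor brain. It was thus near the counting limit in non-tumor endothelial cells, with 50 counts over the 5 libraries, and above it in every BrM library. The log2 difference was 4.55 ± 0.55 in lung BrM (23.4-fold, adjusted p = 1.01e-05 by edgeR) and 4.59 ± 0.55 in breast BrM (24.2-fold, adjusted p = 9.87e-06 by edgeR). Itga1 was at 141, 113, 215, 148 and 126 CPM in lung BrM and at 157, 354, 269, 159.5 and 259 CPM in breast BrM, against 446, 417, 375, 433 and 478 CPM in non-tumor brain. All BrM libraries lay below the non-tumor ones. It fell by 1.48 ± 0.21 in lung BrM (adjusted p = 6.28e-05 by edgeR) and by 0.81 ± 0.21 in breast BrM (adjusted p = 0.00741 by edgeR) on the log2 scale.

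Among the laminin receptor chains, Itga3 rose and Itga6 fell in lung BrM. Itga3 stood at 162 ± 37.9 CPM in lung BrM and 138 ± 61.8 CPM in breast BrM, against 58.05 ± 9.46 CPM in non-tumor brain (SD, n = 5 each). Its log2 differences were 1.54 ± 0.26 in lung BrM (adjusted p = 0.000227 by edgeR) and 1.27 ± 0.25 in breast BrM (adjusted p = 0.00117 by edgeR). Itga6, the most abundant of the 7 alpha chains followed here in non-tumor endothelial cells, was at 230.1, 231, 344, 305 and 229 CPM in lung BrM and at 349, 508, 464, 288 and 489.96 CPM in breast BrM, against 516, 558, 515, 462 and 527 CPM in non-tumor brain. The lung libraries lay below all non-tumor ones, while the breast libraries overlapped them. The difference was -0.89 ± 0.16 in lung BrM (adjusted p = 0.000464 by edgeR) and -0.27 ± 0.16 in breast BrM (adjusted p = 0.226 by edgeR) on the log2 scale. Under the cell type label of mouse 54135, the lung difference was -0.57 and not called (adjusted p = 0.44 by edgeR). Itgb4, the hemidesmosomal beta chain, was low, at 29.2 ± 10.8 CPM in lung BrM and 25.1 ± 18.9 CPM in breast BrM, against 7.95 ± 3.16 CPM in non-tumor brain (SD, n = 5 each). It rose by log2 1.94 ± 0.49 in lung BrM (adjusted p = 0.00581 by edgeR) and 1.70 ± 0.48 in breast BrM (adjusted p = 0.0137 by edgeR). Without the breast library of mouse 51950, the highest at 52.2 CPM, the breast difference was 1.27 (adjusted p = 0.054 by edgeR), and limma-voom did not call it (1.52, adjusted p = 0.071).

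Itgb1, the common partner of most of these alpha chains, had the smallest of the called rises in both tumors. It was at 839 ± 114 CPM in lung BrM and 937 ± 202 CPM in breast BrM, against 606 ± 83.7 CPM in non-tumor brain (SD, n = 5 each). It rose by log2 0.53 ± 0.16 in lung BrM (adjusted p = 0.0167 by edgeR) and 0.66 ± 0.16 in breast BrM (adjusted p = 0.00465 by edgeR). None of the 10 subunits was called between lung and breast BrM, where 0.578% of all genes were called higher and 1.55% lower in lung. At an unadjusted p under 0.05, 2 of the 10 passed by edgeR, beside 2198 of 14876 genes. DESeq2 called 2 subunits, beside 872 genes in all, and limma-voom called 1, beside 490 genes. The nearest was Itga6, with a log2 difference of -0.62 ± 0.16, lower in lung BrM (adjusted p = 0.056 by edgeR), which passed with RLE scaling, DESeq2 and limma-voom (adjusted p = 0.042, 0.0033 and 0.045). Itga5 differed by 0.00 ± 0.20 and Itgb3 by -0.18 ± 0.29 on the same scale.

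The column names carry 6 dates whose meaning is not stated, and no date holds both lung and breast BrM. At the 1 date with 2 lung and 2 non-tumor libraries, the log2 differences in the CD31 sort were 3.78 for Itgb3, 3.63 for Itga2, 2.36 for Itga5, 1.96 for Itga4 and -1.47 for Itga1. At the 2 dates with breast and non-tumor libraries they were 3.73 and 4.77 for Itgb3, 4.87 and 4.13 for Itga2, 1.54 and 2.14 for Itga5, 2.13 and 2.67 for Itga4, and -1.49 and -0.37 for Itga1. These 5 thus kept their direction within each date, whereas Itgb4 was at 2.90 and -0.20 in breast BrM and Itgav at -0.25 in lung BrM. With the date as a term, Itgb1 and Itgb4 were no longer called in either BrM (adjusted p 0.16 to 0.38 by edgeR), nor Itgav in breast BrM (0.079) or Itga6 in lung BrM (0.068). That fit draws its differences only from dates that hold both groups, so a lost call cannot be told apart from the loss of samples.

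Markers of other cells moved with these groups. In the CD31 sort, 6 of 10 epithelial and cancer cell markers tested were called higher in lung BrM and 9 of 10 in breast BrM. Of 7 platelet markers, among them the integrin chain Itga2b, 4 were tested, and 2 and 1 of these were called higher. Over all genes tested, 20.4% were called higher in lung BrM and 18.6% in breast BrM. Platelet markers, of interest because Itgb3 and Itga2 are also platelet integrins, summed to 10.7 to 45.6 CPM in lung BrM, 9.92 to 33.9 CPM in breast BrM and 2.69 to 15.5 CPM in non-tumor brain, and myeloid markers to 12.9 to 531, 3.21 to 72.6 and 2.61 to 15.1 CPM. The part of these cells in the result was not tested. The CD31 library with the lowest epithelial sum of lung BrM (pool 55169-70, 96.5 CPM) had 350.0 CPM of Itga5 and 106 CPM of Itgb3. That of breast BrM (mouse 52599, 157 CPM) had 249 CPM of Itga5 and 138 CPM of Itgb3. These values lay within the range of the other BrM libraries of their group and above every non-tumor library. Itga2 was the lowest of its group in both libraries, at 5.03 and 9.48 CPM, and above every non-tumor library. Its highest lung value, 25.6 CPM, was in mouse 51435, with the highest epithelial sum of that group (2242 CPM). Its highest breast value, 24.4 CPM, was in mouse 53142, with a sum of 305 CPM. Itgb4 was at 44.7 CPM, the highest of its group, in the first of these libraries and at 6.51 CPM, the lowest of its group and within the non-tumor range, in the second.

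**Figure D2:**
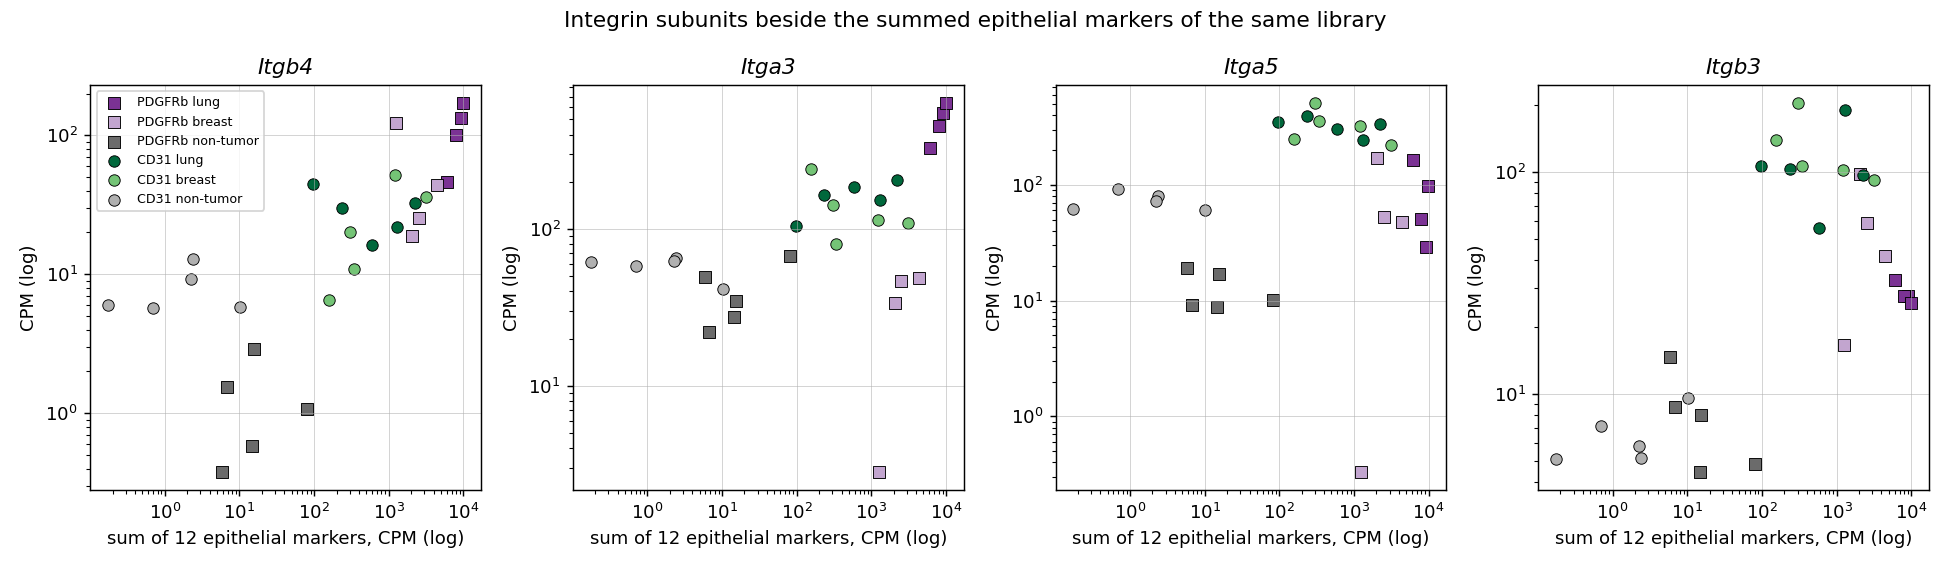
CPM of Itgb4, Itga3, Itga5 and Itgb3 in each library (log axes) against the summed CPM of 12 epithelial markers in the same library, with squares for the PDGFRb sort and circles for the CD31 sort. Itga5 and Itgb3 of CD31 BrM libraries stood high at the lowest epithelial sums of 96.5 and 157 CPM, and Itga3 and Itgb4 reached their highest values in the PDGFRb lung libraries with sums of up to 9973 CPM.

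The upstream windows of the alpha chains that rose most in both BrM groups of the CD31 sort, Itga2, Itga5 and Itga4, are set beside that of Itga1, which fell in both. Each holds the 250 bases before the gene's start from RefSeq (build GRCm38.p6), 5′ to 3′ on the gene's strand, with GC boxes (GGGCGG on either strand) in capitals. They lie at chr13:114932101-114932350 (minus strand, Itga2), chr15:103366792-103367041 (minus, Itga5), chr2:79255176-79255425 (plus, Itga4) and chr13:115101965-115102214 (minus, Itga1), so that Itga1 and Itga2 are on the same chromosome.
Itga2: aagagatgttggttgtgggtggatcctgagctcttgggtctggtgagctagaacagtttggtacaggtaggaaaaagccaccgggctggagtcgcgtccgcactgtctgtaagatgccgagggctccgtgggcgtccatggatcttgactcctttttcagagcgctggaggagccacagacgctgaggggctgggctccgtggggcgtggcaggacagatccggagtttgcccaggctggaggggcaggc
Itga5: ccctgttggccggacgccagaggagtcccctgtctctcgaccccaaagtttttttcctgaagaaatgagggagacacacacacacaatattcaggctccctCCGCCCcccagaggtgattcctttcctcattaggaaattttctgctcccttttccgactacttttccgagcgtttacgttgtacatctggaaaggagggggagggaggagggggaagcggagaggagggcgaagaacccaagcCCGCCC
Itga4: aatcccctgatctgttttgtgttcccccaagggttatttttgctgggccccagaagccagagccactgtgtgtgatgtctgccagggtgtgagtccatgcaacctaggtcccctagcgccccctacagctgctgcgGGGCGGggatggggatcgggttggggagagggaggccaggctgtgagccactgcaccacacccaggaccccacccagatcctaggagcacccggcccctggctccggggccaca
Itga1: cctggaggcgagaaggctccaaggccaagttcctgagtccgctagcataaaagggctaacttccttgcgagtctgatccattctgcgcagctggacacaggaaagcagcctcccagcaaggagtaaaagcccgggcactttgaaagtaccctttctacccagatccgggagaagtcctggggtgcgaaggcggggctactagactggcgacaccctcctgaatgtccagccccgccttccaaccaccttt
The window of Itga5 held 2 GC boxes and that of Itga4 held 1, while those of Itga2 and Itga1 held none; 32.7% of 32851 RefSeq promoter windows of this length held at least 1. The AP-1 site TGANTCA was in none of these windows and in 6.75% of all, and the E-box CANNTG was in those of Itga5, Itga4 and Itga1 and in 66.2% of all. Of the 10 subunits, 7 had an entry in this promoter table.

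The PDGFRb sort had 7 subunits called in lung BrM and 3 in breast BrM. In lung BrM 5 rose and 2 fell, with 9.91% of 17028 genes called higher and 7.58% lower. In breast BrM 3 rose and none fell (none also at an unadjusted p under 0.05 or by DESeq2), with 6.3% called higher and 2.69% lower (edgeR, adjusted p under 0.05). At the unadjusted threshold 4248 of 17028 genes passed in either direction in breast BrM by edgeR. The median log2 difference of the 10 was 2.30 in lung and 1.47 in breast BrM, beside -0.03 and -0.16 over all genes. The 7 lung calls were not kept when the 3 libraries low in Pdgfrb were left out. That fit has mouse 51435 as its only lung library, so the loss cannot be told apart from that of fewer samples. With the date as a term, 3 subunits were called in lung BrM, of which 1 was higher (Itgb4) and 2 lower (Itga1 and Itga4). Of the others called without that term, Itga3 differed by 4.46, Itga6 by 3.26 and Itgb3 by 1.74 (adjusted p = 0.077, 0.19 and 0.52 by edgeR), and Itga2 had an adjusted p of 0.082 by edgeR. Only 1 date holds both lung and non-tumor libraries of this sort. The lung difference with that term thus rests on its 2 lung libraries, both low in Pdgfrb. A call lost there cannot be told apart from the loss of samples. Grouping mouse 54135 by its cell type label left 4 called, without Itga6, Itgb3 and Itga4.

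Itgb4 showed the largest rise of a gene with counts in both groups. It was at 45.8, 134, 100.5 and 169.9 CPM in lung BrM and at 123, 18.8, 25.6 and 44.0 CPM in breast BrM, against 0.379, 1.08, 0.586, 1.55 and 2.90 CPM in non-tumor brain. No BrM library came near the non-tumor ones. The log2 difference was 6.49 ± 0.80 in lung BrM (adjusted p = 0.000138 by edgeR) and 5.35 ± 0.76 in breast BrM (adjusted p = 0.00103 by edgeR). In mouse 51435 alone against non-tumor brain it was 5.09 (adjusted p = 0.05 by edgeR). Itga6, the alpha partner of beta-4, was at 36.4, 106, 54.3 and 75.4 CPM in lung BrM and at 183, 58.5, 67.0 and 126 CPM in breast BrM, against 1.96, 2.37, 24.7, 7.51 and 12.5 CPM in non-tumor brain. It was higher in all BrM libraries, with a log2 difference of 2.85 ± 0.70 in lung BrM (adjusted p = 0.013 by edgeR) and 3.49 ± 0.71 in breast BrM (adjusted p = 0.00879 by edgeR). In mouse 51435 alone it was 1.85 (adjusted p = 0.65 by edgeR). With mouse 54135 grouped by its cell type label in place of its title, Itga6 differed by -0.73 in lung BrM and -0.02 in breast BrM and was not called.

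Both chains of this laminin receptor are also epithelial, and epithelial markers moved with them. Of 12 such markers, 5 were called higher in lung BrM and 9 in breast BrM, beside 9.91% and 6.3% of all genes. The summed level of these markers was 1262 CPM in the breast library of mouse 51950, the lowest of that group, where Itgb4 and Itga6 were the highest of the group at 123 and 183 CPM. In lung BrM the order of Itgb4 by library was that of the epithelial sum, with both lowest in mouse 51435. The part of these cells in the result was not tested.

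Itgb3 rose here too, to a lower level than in endothelial cells. It was at 32.6, 27.6, 27.5 and 25.5 CPM in lung BrM and at 16.6, 98.2, 59.1 and 41.8 CPM in breast BrM, against 14.7, 4.83, 4.46, 8.75 and 8.07 CPM in non-tumor brain. The groups did not overlap. The log2 difference was 1.84 ± 0.55 in lung BrM (adjusted p = 0.0337 by edgeR) and 2.77 ± 0.57 in breast BrM (adjusted p = 0.00861 by edgeR), and the lung call was lost on leaving out any of 8 of the 9 libraries compared (adjusted p 0.07 to 0.094 by edgeR). With the date as a term the breast difference was 2.30 (adjusted p = 0.44 by edgeR) for Itgb3 and 3.06 (0.31) for Itga6, while Itgb4 was still called. This fit too draws its differences only from dates that hold both groups. At the 2 dates with breast and non-tumor libraries, Itgb3 differed by 0.83 and 4.06, Itga6 by 6.20 and 1.33, and Itgb4 by 7.22 and 4.98 on the log2 scale. At the date with 2 lung and 2 non-tumor libraries these 3 differed by 1.65, 3.19 and 6.08, both lung libraries there being low in Pdgfrb. In mouse 51435 alone Itgb3 differed from non-tumor brain by 1.96 (adjusted p = 0.59 by edgeR).

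The remaining lung calls were Itga2, Itga3, Itga1 and Itga4, and each was at its extreme in the 3 libraries low in Pdgfrb. Itga3 was at 327, 547, 455 and 634 CPM in lung BrM and at 2.82, 33.8, 46.8 and 48.7 CPM in breast BrM, against 49.5, 67.2, 27.6, 21.9 and 34.7 CPM in non-tumor brain. Lung libraries stood above all others and breast libraries overlapped the non-tumor ones. The log2 difference was 3.67 ± 0.61 in lung BrM (adjusted p = 0.00129 by edgeR) and -0.23 ± 0.57 in breast BrM (adjusted p = 0.853 by edgeR). Itga2 had no count in any PDGFRb library of non-tumor brain. It had 32 counts in breast BrM, 30 of them in mouse 53072, and 3814 in lung BrM, where it was at 39.1, 85.6, 49.0 and 60.1 CPM. Set against a limit of 3 counts over the non-tumor group, it was at least 1970-fold higher in lung BrM (adjusted p = 0.00174 by edgeR) and at least 17.9-fold higher in breast BrM (adjusted p = 0.0509 by edgeR). With mouse 51435, at 39.1 CPM, as the lone lung library, the adjusted p was 0.075 by edgeR.

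Itga1, the most abundant of the 7 alpha chains followed here in non-tumor PDGFRb libraries, was at 271, 86.7, 78.1 and 86.8 CPM in lung BrM and at 844, 562, 637 and 391 CPM in breast BrM, against 575, 652, 316, 694 and 636 CPM in non-tumor brain. Only the lung libraries lay below the non-tumor range, and of these mouse 51435 was nearest to it. It fell by 2.12 ± 0.39 in lung BrM (log2; adjusted p = 0.00243 by edgeR), and differed by 0.11 ± 0.36 in breast BrM (adjusted p = 0.89 by edgeR). Itga4 was at 22.9, 1.28, 1.65 and 0.176 CPM in lung BrM and at 281, 52.0, 70.4 and 37.5 CPM in breast BrM, against 57.8, 70.2, 44.7, 114 and 109 CPM in non-tumor brain. All lung libraries lay below the non-tumor ones, and the breast libraries overlapped them. It fell by 3.62 ± 1.10 in lung BrM (log2; adjusted p = 0.0359 by edgeR), a call lost on leaving out any of 8 of the 9 libraries (adjusted p 0.05 to 0.1 by edgeR). In mouse 51435 alone the log2 differences from non-tumor brain were 2.99 for Itga3, -1.12 for Itga1 and -1.83 for Itga4 (adjusted p = 0.21, 0.47 and 0.67 by edgeR).

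Itga5 was not called in either tumor, with large spread. It was at 164, 28.9, 50.7 and 97.7 CPM in lung BrM and at 0.332, 170.3, 52.4 and 47.8 CPM in breast BrM, against 19.1, 10.1, 8.83, 9.23 and 17.1 CPM in non-tumor brain. All BrM libraries but mouse 51950, with 2 counts, were above the non-tumor ones. The log2 difference was 2.76 ± 0.94 in lung BrM (adjusted p = 0.0591 by edgeR; 0.014 by DESeq2) and 2.45 ± 0.94 in breast BrM (adjusted p = 0.118 by edgeR), and without mouse 51950 the breast difference was 2.82 (adjusted p = 0.005 by edgeR). In mouse 51435 alone it was 3.64 above non-tumor brain (adjusted p = 0.32 by edgeR). Itgav differed by 0.08 ± 0.32 in lung BrM and 0.37 ± 0.32 in breast BrM, and Itgb1 by -0.88 ± 0.37 and 0.31 ± 0.36, none of them called. Without mouse 51435, Itgb1 fell by 1.45 on the log2 scale in lung BrM (adjusted p = 0.0091 by edgeR), and in mouse 51435 alone it differed by -0.02.

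**Figure D3:**
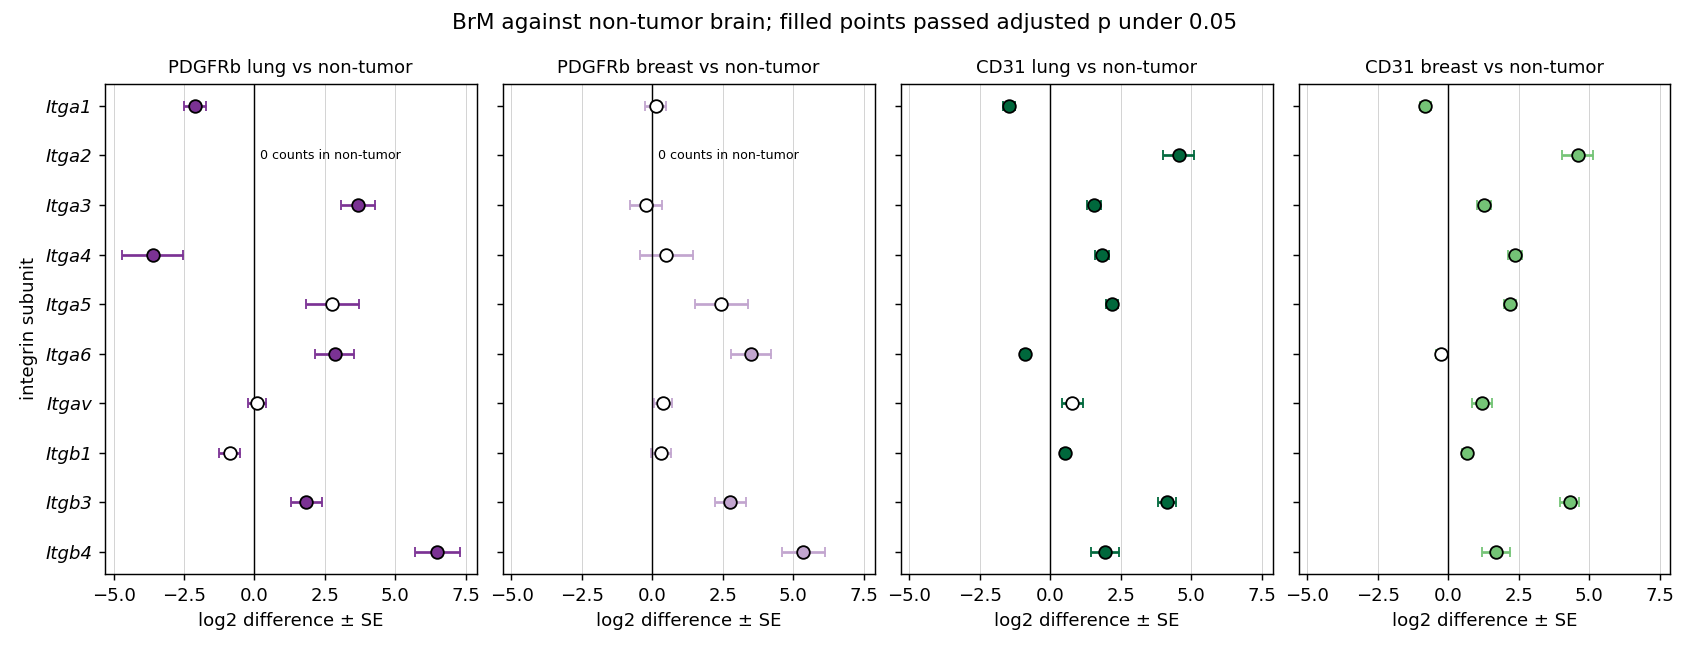
Log2 differences of the 10 subunits between BrM and non-tumor brain with their SE, in 4 comparisons, with filled points for those past adjusted p under 0.05 by edgeR. In the CD31 sort the lung and breast values lie close together, and among the PDGFRb values those of Itga1, Itga3 and Itga4 are the furthest apart between the tumors. Itga2 of the PDGFRb sort is not drawn because non-tumor libraries had 0 counts.

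Between the tumors in the PDGFRb sort, 3 subunits were called, beside 3.08% of genes higher and 2.39% lower in lung BrM. Itga3 was higher by 3.90 ± 0.67 (adjusted p = 0.00476 by edgeR), Itga2 by 6.67 ± 1.55 (adjusted p = 0.0351 by edgeR) and Itga1 lower, at -2.23 ± 0.40 (adjusted p = 0.00624 by edgeR), on the log2 scale. Mouse 51435 alone differed from breast BrM by 3.28, 6.07 and -1.16 for these genes, values that rest on 1 lung library. The Itga2 call was lost on leaving out any of 5 libraries (adjusted p 0.053 to 0.099 by edgeR). Its size turned on breast mouse 53072, without which 2 breast counts were left and the fitted difference was 10.24 (6.23 to 6.77 without any 1 of the other libraries). Itga4 differed by -4.11 ± 1.15 (adjusted p = 0.0517 by edgeR). Without mouse 51435 it differed by -6.70 and Itgb1 by -1.70 (adjusted p = 0.00082 and 0.0074 by edgeR).

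Whether the difference between BrM and non-tumor brain depended on the sort was tested as an interaction over all 28 libraries. For the lung effect, 4 subunits had a higher and 3 a lower log2 difference in the PDGFRb sort than in the CD31 sort, beside 3.77% and 6.35% of 18548 genes. Itga2, Itgb4 (4.54 ± 0.85), Itga6 (3.73 ± 0.66) and Itga3 (2.13 ± 0.62) were higher, and Itga4 (-5.38 ± 1.07), Itgb3 (-2.28 ± 0.58) and Itgb1 (-1.38 ± 0.41) were lower, with adjusted p between 0.000357 and 0.0296 by edgeR. The size of the Itga2 interaction cannot be estimated, since the PDGFRb non-tumor libraries had 0 counts: its rise of at least 1970-fold in the PDGFRb sort stands beside one of 23.4-fold in the CD31 sort. With mouse 51435 as the lone PDGFRb lung sample only Itga2 was called (adjusted p = 0.033 by edgeR), while Itgb4 was at 3.08, Itga6 at 2.69, Itga3 at 1.39, Itga4 at -3.73, Itgb3 at -2.24 and Itgb1 at -0.61. For the breast effect, Itga6 (3.76 ± 0.66, adjusted p = 0.000575 by edgeR) and Itgb4 (3.67 ± 0.84, adjusted p = 0.00796 by edgeR) were higher in the PDGFRb sort and none was lower by edgeR (2 at an unadjusted p under 0.05), beside 2.35% and 3.57% of genes. At the unadjusted threshold 3600 of 18548 genes passed in either direction by edgeR. DESeq2 called Itgb3 lower (-1.65, adjusted p = 0.034), and limma-voom called Itga4 lower (-2.56, adjusted p = 0.019) and not Itgb4 (3.45, adjusted p = 0.052). With mouse 54135 grouped by its cell type label, no breast interaction was called (Itga6 at 0.00 and Itgb4 at 1.61), and those of Itga2, Itga3, Itgb4 and Itga6 were lost in lung BrM. The lung call of Itgb1 was lost on leaving out any of 6 of the 19 libraries compared and that of Itga3 on leaving out any of 4 (adjusted p 0.051 to 0.095 by edgeR). In the breast comparison the interaction of Itga5 was 0.23 ± 0.88, so its rise was not shown to differ between the sorts. With the mouse as a block, the lung interactions of Itga3 and Itgb3 were 2.08 and -2.02 and no longer called (adjusted p = 0.17 and 0.076 by edgeR), and 852 in place of 1876 genes were called for lung and 328 in place of 1099 for breast.

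Set side by side in non-tumor brain and grouped by title, the sorts carried different alpha chains. In the PDGFRb sort 2 subunits were higher and 4 lower than in the CD31 sort, beside 17.4% and 10.5% of genes. With mouse 54135 grouped by its cell type label, against its Pecam1 and Pdgfrb levels, none of the 10 subunits and 0 genes were called. With this mouse left out, 5 subunits were called. Itgav was at 56.8, 90.7, 53.7, 83.1 and 78.2 CPM in the PDGFRb sort, against 15.3, 18.4, 11.9, 19.1 and 15.3 CPM in the CD31 sort. These values did not overlap, and the log2 difference was 2.18 ± 0.36 (adjusted p = 3.25e-05 by edgeR). Itga4 was the other higher subunit (1.90 ± 0.70, adjusted p = 0.0412 by edgeR, and 0.063 with the mouse as a block), and its call was lost on leaving out any of 8 of the 10 libraries (1.76 to 2.00, adjusted p 0.052 to 0.082 by edgeR). Itga6 was 52.4-fold lower in the PDGFRb sort (log2 -5.71 ± 0.54, adjusted p = 6.78e-09 by edgeR), Itga5 was 5.73-fold lower (-2.52 ± 0.64, adjusted p = 0.00339 by edgeR) and Itgb4 was 6.04-fold lower (-2.59 ± 0.61, adjusted p = 0.00167 by edgeR). Itga2, with 0 counts against 50, was at least 19.7-fold lower (adjusted p = 0.000535 by edgeR). Itgb1 (0.54 ± 0.28), Itga1 (0.42 ± 0.30), Itgb3 (0.32 ± 0.39) and Itga3 (-0.53 ± 0.42) were not called.

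The same contrast in BrM gave 3 higher and 5 lower subunits in lung, beside 10.2% and 9.36% of genes, and 2 higher and 5 lower in breast, beside 9% and 7.51%. In lung BrM the PDGFRb sort was higher in Itgav (1.496 ± 0.37), Itgb4 (1.95 ± 0.60) and Itga3 (1.60 ± 0.45) and lower in Itga4, Itgb3, Itga6, Itga5 and Itgb1 (-3.48 to -0.84). On leaving out 1 of the 9 libraries, 4 to 9 subunits were called: the call of Itgb1 was lost in 8 cases (-0.91 to -0.63), that of Itga5 in 7 (-2.12 to -1.72), that of Itgb4 in 3 and that of Itga3 in 1 (adjusted p 0.053 to 0.18 by edgeR). With mouse 51435 as the lone PDGFRb sample, Itgav was at 1.47, Itgb4 at 0.54, Itga3 at 0.90, Itga6 at -2.98, Itgb3 at -1.87, Itga4 at -1.78, Itga5 at -1.09 and Itgb1 at -0.02, values that rest on 1 library of that sort. In breast BrM it was higher in Itgav (1.35 ± 0.36) and Itga1 (1.34 ± 0.32) and lower in Itga2, Itga5, Itga3, Itga6 and Itgb3 (-4.55 to -1.25), at adjusted p 0.00224 to 0.0415 by edgeR. The breast call of Itgb3 was lost on leaving out any of 6 of the 9 libraries and that of Itga5 on leaving out any of 3 (adjusted p 0.051 to 0.13 by edgeR). By the cell type label of mouse 54135, 4 subunits were called in lung BrM and 3 in breast BrM. With the mouse as a block Itga3, Itga5 and Itgb4 were not called in lung BrM (adjusted p = 0.11, 0.093 and 0.077 by edgeR) nor Itga5 and Itgb3 in breast BrM (0.085 and 0.12), and 1918 in place of 3636 genes were called in lung and 1338 in place of 3063 in breast.

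Levels were compared between genes on the FPKM scale (fragments scaled by gene length and depth), which the authors deposited in 1 table per sort, so that levels set across the sorts rest on separate tables. In the PDGFRb sort of lung BrM, Itga3 made up 46.4% ± 10.5 of the FPKM of the 7 alpha chains and Itgav 23.9% ± 7.37 (SD, n = 4), and in its mouse 51435 these chains made up 32.4% and 27.1%. In breast BrM, Itga1 made up 32.4% ± 9, Itgav 29.3% ± 12.9 and Itga6 21.0% ± 10.8 (SD, n = 4), and in non-tumor brain Itga1 made up 51.2% ± 10.7 and Itgav 29.0% ± 11.4 (SD, n = 5). In the CD31 sort, Itga6 held 35.9% ± 6.58 in lung BrM and 46.6% ± 2.22 in breast BrM, against 66.2% ± 2.77 in non-tumor brain, and Itga5 held 29.3% ± 5.46 and 24% ± 6.11, against 6.30% ± 1.18 (SD, n = 5 each). The share of Itga1 was 5.61% ± 1.66 and 7.79% ± 0.99 in those BrM groups, against 18.9% ± 1.44 in non-tumor brain. Itgav held 11.4% ± 9.09 and 8.16% ± 4.4, against 2.82% ± 0.903 (SD, n = 5 each). By group mean, Itga6 and then Itga5 were thus the leading ones of these 7 alpha chains in endothelial cells of BrM. Itgav stood above Itga5 in lung mouse 51697 (26.9% and 21.7%) and in breast mouse 52599 (15.2% and 14.3%).

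Among the 3 beta chains, Itgb1 was the most abundant in every group on the FPKM scale. It held 80.0% ± 9.77 in lung BrM and 92.9% ± 1.79 in breast BrM of the PDGFRb sort (SD, n = 4 each), against 99.3% ± 0.204 in non-tumor brain (SD, n = 5), and it held 94.6% in lung mouse 51435. In the CD31 sort it held 90.1% ± 4.05 and 90.4% ± 2.05, against 98.5% ± 0.269 (SD, n = 5 each). Itgb3 took 7.84% ± 3.96 and 7.99% ± 2.41 there, against 0.706% ± 0.287. The summed FPKM of the 7 alpha chains in the CD31 sort was 281 ± 11.4 in lung BrM and 361 ± 77.0 in breast BrM, against 278 ± 13.6 in non-tumor brain, while that of the beta chains was 261 ± 20.9 and 290 ± 61.7, against 162 ± 21.5 (SD, n = 5 each).

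**Figure D4:**
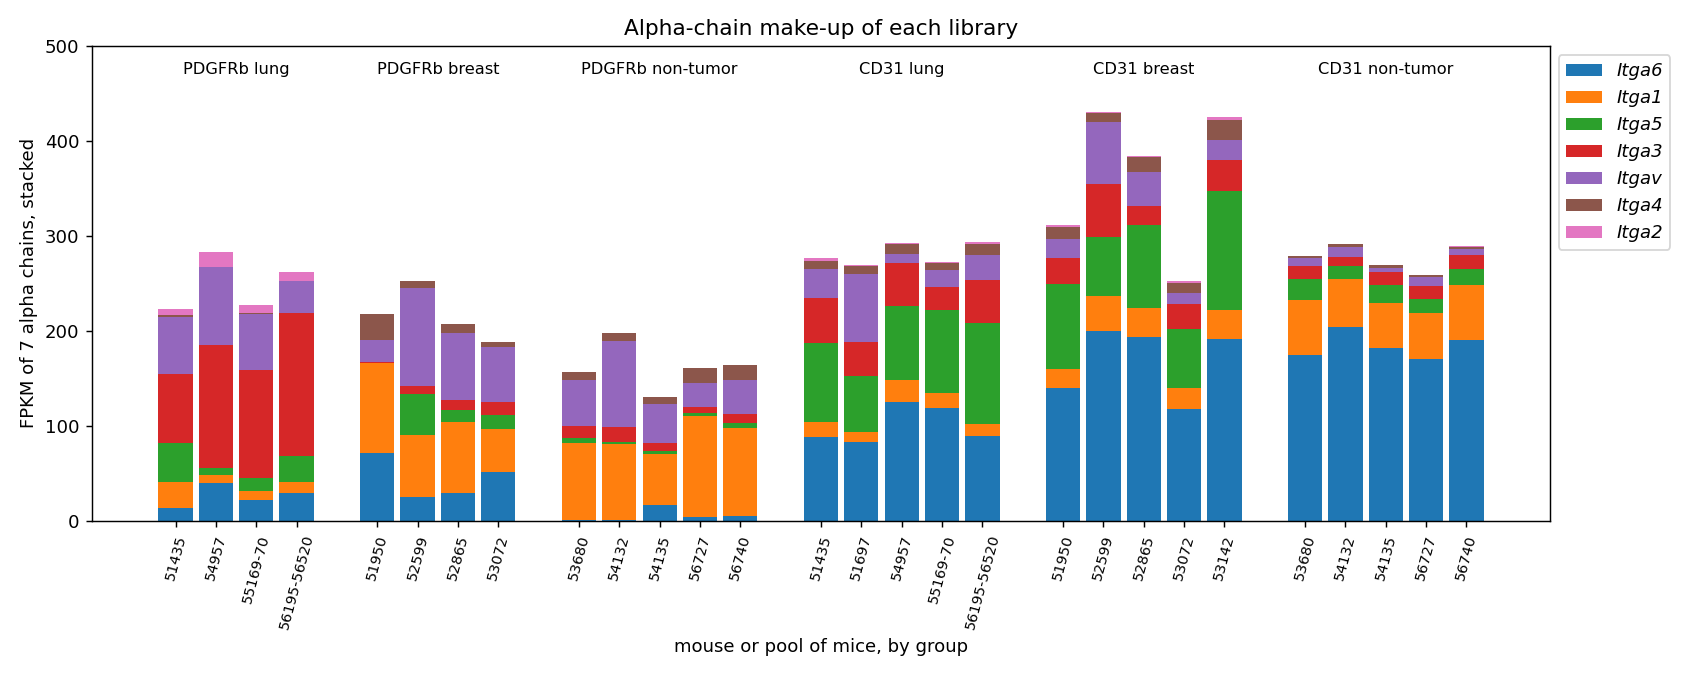
FPKM of the 7 alpha chains stacked for each library, by group and mouse. Itga6 leads all CD31 non-tumor libraries, with a mean of 66.2%, Itga5 widens in CD31 BrM, and Itga3 leads the PDGFRb lung libraries with a mean of 46.4%.

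The order of the 6 groups differed by subunit. By median CPM, Itga6 was highest in the 3 CD31 groups (231 to 516), Itgav in the 3 PDGFRb groups (78.2 to 92.8), and Itga5 (333 and 322) and Itgb3 (103 and 106) in the 2 CD31 BrM groups. Neighbours in these orders mostly overlapped: for Itgb3 a gap between ranges was seen only between PDGFRb lung (27.5) and PDGFRb non-tumor (8.07), and for Itgav there was none. Across the 28 libraries, which share group and sort, the genes of like level pattern by Pearson's r of log2 CPM, among 8792 or 8793 genes per subunit, were Piezo2 (r = 0.942) for Itgb3, Gngt2 (0.941) for Itga5, Pde4b (0.943) and Lims1 (0.933) for Itga4, Socs2 (0.955) for Itga6, Emp1 (0.919) for Itga2, Smad3 (0.918) for Itga3, Gcnt2 (0.913) for Itga1, Spry2 (0.931) and Itgb5 (0.895) for Itgav, Rftn1 (0.902) for Itgb1 and Frrs1 (0.92) for Itgb4.
As a description, within the CD31 sort Itga1 and Itga6 varied together over the 15 libraries (r = 0.937), as did Itga5 and Itgb3 (0.94), Itga2 and Itgb3 (0.939), and Itga5 and Itga4 (0.929). In the 13 PDGFRb libraries Itga6 and Itgb4 did so (0.868), as did Itga1 and Itga4 (0.96).

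The ligands of these receptors were examined in the same fits. In the CD31 sort, the list counts stand beside 20.4% of all genes called higher and 14.5% lower in lung BrM, and 18.6% and 11.4% in breast BrM. Of 10 laminin chains tested in the CD31 sort, 6 were higher and 2 lower in lung BrM, and 5 and 2 in breast BrM, with list medians of log2 2.10 and 2.29. Lamb1, the beta-1 laminin chain, was at 378 ± 71.9 CPM in lung BrM and 509 ± 215 CPM in breast BrM, against 3.68 ± 1.02 CPM in non-tumor brain (SD, n = 5 each). That was a log2 difference of 6.73 ± 0.32 in lung BrM (adjusted p = 8.69e-10 by edgeR) and 7.13 ± 0.33 in breast BrM (adjusted p = 7e-10 by edgeR). Lamc3, a laminin gamma chain, fell by 4.23 ± 0.95 on the log2 scale in breast BrM (1.52 ± 0.647 CPM, against 29.1 ± 13.2 CPM). Of 10 collagen chains tested, 5 were higher in lung and 3 in breast BrM and none lower. Col4a1, a basement membrane collagen, was at 4917 ± 1611 CPM in breast BrM, against 1063 ± 134 CPM in non-tumor brain (log2 2.23 ± 0.20, adjusted p = 5.16e-07 by edgeR). Of 14 RGD and related ligands, 8 were higher and 1 lower in lung BrM, and 7 and 1 in breast BrM. Spp1, which encodes osteopontin, was at 1230 ± 1192 CPM in lung BrM and 269 ± 355 CPM in breast BrM, against 0.804 ± 0.869 CPM in non-tumor brain (SD, n = 5 each; log2 10.66 ± 1.53 and 8.47 ± 1.42, adjusted p = 5.99e-05 and 0.000275 by edgeR).

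In the PDGFRb sort the list counts stand beside 9.91% of all genes called higher and 7.58% lower in lung BrM, and 6.3% and 2.69% in breast BrM. Fn1, which encodes fibronectin, was at 2676 ± 735 CPM in lung BrM and 1318 ± 499 CPM in breast BrM (SD, n = 4 each), against 53.2 ± 21.9 CPM in non-tumor brain (SD, n = 5). Its log2 difference was 5.70 ± 0.39 in lung BrM (adjusted p = 1.29e-06 by edgeR; named after its value was seen) and 4.66 ± 0.38 in breast BrM (adjusted p = 3.41e-05 by edgeR). In the CD31 sort Fn1 was not called in either tumor (log2 0.14 ± 0.25 in lung and -0.16 ± 0.25 in breast BrM). Of 17 RGD and related ligands tested in the PDGFRb sort, 8 were higher and 3 lower in lung BrM and 7 and 1 in breast BrM. Among those higher in lung BrM were the fibrinogen chains Fgb, Fgg and Fga, at 104 ± 45.8, 6.65 ± 1.39 and 71.1 ± 71.5 CPM (SD, n = 4), with 2, 0 and 28 counts over the non-tumor libraries. Of 12 collagen chains, 2 were higher in lung and 6 in breast BrM, none lower; Col6a3 was at 481 ± 238 CPM in breast BrM (SD, n = 4), against 8.33 ± 4.24 CPM in non-tumor brain (SD, n = 5; log2 5.88 ± 0.84, adjusted p = 0.00112 by edgeR). Of 11 laminin chains, 2 were higher and 2 lower in lung BrM, and 2 and 1 in breast BrM; Lamb1 rose by log2 2.20 ± 0.43 in breast BrM (adjusted p = 0.00711 by edgeR), and Lama2 fell by 2.97 ± 0.86 on the log2 scale in lung BrM (adjusted p = 0.0296 by edgeR).

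Inside the cell, 8 of 25 activation and adhesion adapters were higher and 4 lower in the CD31 sort of lung BrM (beside 20.4% and 14.5% of all genes), and 7 and 3 in breast BrM (beside 18.6% and 11.4%). The shares called lower lay near those of all genes, and so did the list medians of 0.11 and 0.07. The largest fitted rise of a called adapter was that of Fermt1, the epithelial kindlin (adjusted p = 0.00087 in lung and 0.00156 in breast BrM by edgeR). In breast BrM Tns4 came next (adjusted p = 0.00668 by edgeR). Tns3, a tensin that binds beta-chain tails, was at 17.0 ± 6.64 CPM in lung BrM and 25.4 ± 6.71 CPM in breast BrM, against 0.965 ± 0.564 CPM (SD, n = 5 each; log2 4.20 ± 0.45 and 4.75 ± 0.46, adjusted p = 3.07e-06 and 1.13e-06 by edgeR). Of 18 signalling kinases and partners, 10 were higher and 2 lower in lung BrM and 7 and 1 in breast BrM. The tetraspanin Cd63 rose by log2 5.38 ± 0.56 and 4.36 ± 0.53, and Cd82 by 2.699 ± 0.22 and 2.48 ± 0.22 (adjusted p between 2.42e-07 and 1.34e-05 by edgeR). For the PDGFRb sort, 1 adapter was higher and 7 lower in lung BrM (beside 9.91% and 7.58% of all genes), and 2 and 1 in breast BrM (beside 6.3% and 2.69%). On the log2 scale Tns1 fell by 2.63 ± 0.45 and Fermt2, a kindlin, fell by 2.13 ± 0.57 in lung BrM (adjusted p = 0.00159 and 0.0198 by edgeR), while Fermt1, the epithelial kindlin, called higher, was at 156 ± 61.7 CPM (SD, n = 4), against 0.789 ± 1.72 CPM (SD, n = 5). Of the kinases and partners 4 were higher and 4 lower in lung BrM and 2 and 0 in breast BrM; Ptk2, focal adhesion kinase, in log2 terms fell by 1.67 ± 0.47 (adjusted p = 0.0258 by edgeR) and Ptk2b, its homologue, called higher, was at 83.5 ± 18.9 CPM in lung BrM (SD, n = 4), against 1.21 ± 1.07 CPM (SD, n = 5).

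Of the 16 other integrin subunits, 9 were tested in the CD31 sort. There 1 was called higher in lung BrM and 2 in breast BrM, beside 20.4% and 18.6% of all genes, and none lower, beside 14.5% and 11.4%. Itga2b, the platelet alpha chain, rose in lung BrM (log2 1.83 ± 0.50, adjusted p = 0.00944 by edgeR) and in breast BrM (1.71 ± 0.50, adjusted p = 0.0152 by edgeR). Itga8 rose in breast BrM (8.93 ± 12.2 CPM, against 0.423 ± 0.878 CPM, SD, n = 5 each, adjusted p = 0.0336 by edgeR). Of the 16 subunits, 14 were tested in the PDGFRb sort. In lung BrM 1 was higher and 3 lower, beside 9.91% and 7.58% of all genes. In breast BrM 2 were higher and 0 lower, beside 6.3% and 2.69%. Itga7, a laminin receptor chain of muscle and mural cells, was at 34.0 ± 43.4 CPM in lung BrM (SD, n = 4), against 584 ± 180 CPM in non-tumor brain (SD, n = 5), and in log2 terms fell by 4.10 ± 0.82 (adjusted p = 0.0044 by edgeR). Itgb6, an epithelial partner of alpha-v, was at 2.68 ± 2.83 CPM in lung BrM and 7.14 ± 6.64 CPM in breast BrM (SD, n = 4 each), against 0.0892 ± 0.155 CPM in non-tumor brain (SD, n = 5).

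The PDGFRb lung counts of these 6 lists come from a group with 3 libraries low in Pdgfrb. Most of these calls were not kept with mouse 51435 as the only lung library. Such a loss cannot be told apart from that of fewer samples. In mouse 51435 Fn1 was at 2511 CPM, Fgb at 155 CPM, Fermt1 at 64.4 CPM, Ptk2b at 58.3 CPM and Itga7 at 98.5 CPM.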

How the data were processed

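The deposited tables hold 28 libraries of sorted brain cells, prepared with SMART-Seq HT and Nextera XT (no strand information, per the labels' protocols). The authors' gene table gives expected counts (estimated counts that need not be whole, 5.25% of cells) for 53647 gene IDs, of which 52093 had a symbol; IDs without one held 0.182% to 1.57% of a library's counts. The authors also deposited FPKM and log2 normalized values for 18665 genes, in 1 table per sort. The submitters' processing notes name, for build mm10, the tools RSEM 1.3.3, STAR 2.7.9a, limma 3.50.3 and edgeR 3.36.0; the annotation release is not given in the sources used here, and 35 IDs matched the version of the reference table, so no gene coordinates are printed beyond RefSeq promoter windows.

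Expected counts were rounded to whole numbers, filtered (filterByExpr), scaled by TMM and tested with edgeR 4.0.16 (robust quasi-likelihood, R 4.3.3, Benjamini-Hochberg, adjusted p under 0.05). Groups within a sort were fitted over that sort's libraries, and the sorts compared over all 28. CPM are counts per M counts of TMM-scaled library size. Alternatives were RLE scaling, no filter, DESeq2 1.42.0, limma-voom and limma-trend (limma 3.58.1), mouse 54135 grouped by its cell type label or left out, the date as a term, the PDGFRb lung libraries under 50 CPM of Pdgfrb left out, the mouse as a block, and each library left out. With the date as a term, only dates that hold both groups inform a difference, so fewer libraries bear on it. Limits of 3 counts cover counting error only. Where libraries of a group come from separate mice, p-values measure the spread between mice; 2 lung samples are pools.

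The sorts share mice: 13 mice gave both, so replicates are paired by animal. Deviations from the group means of paired libraries correlated at -0.082 to 0.245 (median 0.001), and 2 of 13 were above 0.1.

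Members, lists, tests and the rule for named genes (all 10 subunits; per list and comparison up to 3 called genes with the largest change; the 3 genes most like each subunit whose mean log2 CPM reached 3, prior count 2) were chosen with earlier results of these data known. Not every gene that the rule named is reported here. Test scripts were tested on simulated data.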

Additional observations from a re-analysis of the deposited data

Results flagged for a closer look

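In 7 of 60 sets of libraries (1 subunit in 1 group), a library stood apart from the rest by Dixon's 95% limit, where chance gives about 1 in 20 for separate sets. The set of Itga2 in PDGFRb non-tumor libraries, with 0 counts, could not be tested. Sets of the same group share libraries, so they are not separate. Itga1 was high in the PDGFRb lung library of mouse 51435 (271 CPM), the lung library with the most Pdgfrb. Itga1 (316 CPM) and Itgb1 (430.2 CPM) were low in the PDGFRb non-tumor library of mouse 54135, whose labels name opposite sorts. Itga3 was low in the PDGFRb breast library of mouse 51950 (2.82 CPM), the library with the fewest counts. Itgav was high in the CD31 breast library of mouse 52599 (65.2 CPM), Itga2 was high in that of mouse 53142 (24.4 CPM), and Itga3 was low in the CD31 non-tumor library of mouse 54132 (41.7 CPM).

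The difference between BrM and non-tumor brain itself differed between the PDGFRb and CD31 sorts for several subunits (edgeR interaction, log2, PDGFRb minus CD31). In breast BrM these were Itga6 (3.76) and Itgb4 (3.67). In lung BrM they were Itga2 (8.51), Itgb4 (4.54), Itga6 (3.73), Itga3 (2.13), Itgb1 (-1.38), Itgb3 (-2.28) and Itga4 (-5.38), and these rest on a group with 3 libraries low in Pdgfrb. The value of Itga2 is a fitted one that gives no size, since the PDGFRb non-tumor libraries had 0 counts; its rise was at least 1970-fold in the PDGFRb sort and 23.4-fold in the CD31 sort.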

How the results depend on the processing

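Leaving out 1 library kept direction and side of the threshold in 1109 values of single subunits, moved 15 past it, took 70 below it and turned 26; the other alternatives did so in 685, 16, 83 and 26. The mouse as a block changed no call of a subunit other than those given beside the results. The cell type label of mouse 54135 went against the Pecam1 and Pdgfrb levels of its libraries. With mouse 54135 grouped by label, genes called were 2390 for CD31 breast, 3000 for CD31 lung, 644 for PDGFRb breast, 1816 for PDGFRb lung (4 subunits), 0 between sorts in non-tumor brain (0 subunits; 5173 and 6 by title), 1770 in breast (3) and 2088 in lung (4), and 47 (0) and 330 (3) for the breast and lung interactions; without this mouse they were 921 for PDGFRb breast and 701 for the breast interaction. With the date as a term they were 2291 for CD31 breast, 1458 for CD31 lung, 115 (1) for PDGFRb breast and 578 (3) for PDGFRb lung. Without the 3 libraries low in Pdgfrb they were 161 (0) for PDGFRb lung, 26 (0) for PDGFRb lung against breast, 930 (0) between sorts in lung and 210 (1) for the lung interaction. DESeq2 called 872 (2) for CD31 lung against breast, 3137 for PDGFRb breast, 4483 for PDGFRb lung, 2314 for PDGFRb lung against breast and 1931 for the breast interaction; limma-voom called 490 (1) and 1548 for the lung against breast comparisons of CD31 and PDGFRb, and RLE scaling and limma-trend called 1 subunit each in the CD31 one. With the replicate block, 1338 genes were called between sorts in breast, 1918 (5) in lung, and 328 and 852 for the breast and lung interactions.

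Log2 differences that turned were, with 54135 by label, Itga6 in CD31 breast (0.04), PDGFRb breast (-0.02), PDGFRb lung (-0.73) and the lung interaction (-0.02), Itga2 (-2.91) and Itga5 (-1.17) in the breast interaction, and Itga5 (-0.8) and Itgav (0.1) in the lung one. Without that mouse they were Itga1 in PDGFRb breast (-0.09) and Itgav in PDGFRb lung (-0.08). With the date they were Itgav in CD31 lung (-0.1) and PDGFRb lung (-0.2). Itgav in PDGFRb lung was also at -0.04 with RLE scaling, 0 without filter and -0.04 by DESeq2, and Itga5 in CD31 lung against breast at -0.01 without filter. With limma-voom they were Itga4 in PDGFRb breast (-0.24), Itga4 (-0.7) and Itgb1 (-0.01) between sorts in breast, and Itga2 (-1.92) and Itga5 (-0.68) in the breast interaction. With the block they were Itga4 between sorts in breast (-0.29) and Itga5 in the breast interaction (-0.45). Without the libraries low in Pdgfrb they were Itgb4 in PDGFRb lung against breast (-0.18), and Itga1 between sorts in lung (0.77) and in the lung interaction (0.3). None was called after turning; Itga6 in PDGFRb breast, PDGFRb lung and the lung interaction was called before it. The cause was not tested.

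On leaving out 1 library, genes called were 199 to 484 (0 to 2 subunits) for CD31 lung against breast, 830 to 3289 for PDGFRb breast, 1801 to 3103 for PDGFRb lung and 349 to 2688 (2 to 5) for PDGFRb lung against breast, and 4 to 9 subunits between sorts in lung. Subunits that turned ranged, in CD31 lung against breast, from -0.44 to 0.26 (Itga2), -0.09 to 0.19 (Itga5) and -0.47 to 0.04 (Itgb3). In PDGFRb breast they ranged from -0.1 to 0.2 (Itga1), -0.54 to 0.12 (Itga3), -0.56 to 0.71 (Itga4) and -0.01 to 0.41 (Itgb1), in PDGFRb lung from -0.08 to 0.15 (Itgav) and in PDGFRb lung against breast from -0.22 to 1.31 (Itga5). Between sorts they ranged from 0 to 0.52 in non-tumor brain (Itgb3) and in breast from -1.06 to 0.33 (Itga4) and -0.17 to 0.36 (Itgb1), and in the breast interaction from -1.8 to 2.14 (Itga2) and -0.88 to 0.64 (Itga5).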
